A study of Mus musculus with 8 samples.

Results

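Needling at acupoints was set against needling away from them in mice given the neurotoxin MPTP, by measuring RNA of the striatum on whole-transcript gene arrays. The comparison uses 4 of the 8 arrays of the series, chosen by their labels alone, with 1 array per mouse and 2 mice a side. All animals were male C57BL/6 mice, an inbred laboratory strain, aged 6 weeks at the start. All 4 needled mice received MPTP at 20 mg/kg into the abdomen every 24 h for 4 weeks and were needled in 14 sessions 48 h apart. In the acupoint group the needles went into both sides of the body at GB34, 3 mm deep, and at LR3, 1 mm deep, in mice held by hand. In the non-acupoint group they went 3 mm deep into both hips, and needles in both groups were turned at 2 spins per second for 15 seconds. The remaining 4 arrays came from 2 control mice given saline and 2 mice given the same MPTP course, with no needling named for either group, and serve here only as values beside the needled groups. The comparison asks whether the site of needling made a difference to the striatum of MPTP-treated mice. The number of sites and the needle depths differed along with the site itself, and their parts cannot be told apart. The labels give no measure of the lesion in the mice on the arrays and no age at collection of the tissue.

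The striatum receives its dopamine through axons of midbrain neurons. The toxic product of MPTP enters those axons through the dopamine transporter and blocks complex I of the mitochondrial respiratory chain. Most striatal neurons are medium spiny neurons, which fall into a direct-pathway class with the D1 dopamine receptor, substance P and dynorphin, and an indirect-pathway class with the D2 receptor and enkephalin. GB34, below the knee, and LR3, on the foot, are points used in traditional acupuncture for disorders of movement, and needling at another site is a common control for the effects of handling and of the needle itself.

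The values are log2 intensities after RMA, a procedure that makes the overall distribution of every array nearly the same. Array medians lay between 6.02 and 6.12. The correlation over all tested probe sets was 0.989 between the acupoint mice and 0.989 between the non-acupoint mice, against 0.995 between controls and 0.950 between the MPTP-only mice, whose wide spread did not enter the test. Ppp1r1b and Penk, defining genes of striatal neurons, lay between 10.65 and 13.35 in the 4 needled mice, far above those medians. The arrays differed in markers of tissues that border the striatum. For 20 genes of the choroid plexus, which lies in the ventricles and makes cerebrospinal fluid, the mean log2 level relative to the control mean was 1.92 and 0.08 in acupoint mice 1 and 2, and 1.74 and 2.42 in non-acupoint mice 1 and 2. For 15 genes of the thalamus it was 0.67 and -0.08 in the acupoint mice and 0.30 and 1.45 in the non-acupoint mice. The MPTP-only mice stood at 1.80 and -0.17 for the choroid plexus list and at 2.23 and -0.59 for the thalamus list. Acupoint mouse 2 was thus the needled mouse with the lowest levels of both lists, and non-acupoint mouse 2 the one with the highest.

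No gene passed the test. Of 16342 probe sets fitted with limma on the 4 needled arrays, 0 (0%) had an adjusted p under 0.05, and the smallest adjusted p was 0.75. At an unadjusted p under 0.05 there were 279 probe sets higher in the acupoint group (1.71%) and 554 lower (3.39%), where 817 in all would lie under that value by chance. With 2 mice a side the test has little reach. A single probe set of typical spread would have had to differ by 1.98 on the log2 scale to be called alone, and an exact permutation test of 1 gene cannot give a two-sided p below 0.333. The labels call the samples of a group separate mice, and the p-values measure the spread between these mice only. Counts depended on single arrays. There were 554 higher and 1146 lower probe sets at that unadjusted level without acupoint mouse 1, 75 and 109 without acupoint mouse 2, 723 and 1045 without non-acupoint mouse 1, and 93 and 202 without non-acupoint mouse 2. None of these fits called a probe set.

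More genes were lower than higher at acupoints. Taking 1 probe set per gene, 6119 of 14888 genes (41.1%) had the higher mean in the acupoint group and 8767 (58.9%) the lower, with a median difference of -0.03 on the log2 scale. Counted over probe sets, the higher share was 41.6%, and it depended on the processing. It ran from 37% with a filter at the median to 46.5% with unnamed and multi-symbol probe sets included. With quantile normalisation repeated it was 46.2%. Both acupoint mice lay above both non-acupoint mice in 1981 genes (13.3%) and below them in 3729 (25%). Under an unadjusted p of 0.05 there were 245 higher (1.65%) and 502 lower genes (3.37%). These shares are the background for every gene list below, and no list was tested as a set.

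**Figure D1:**
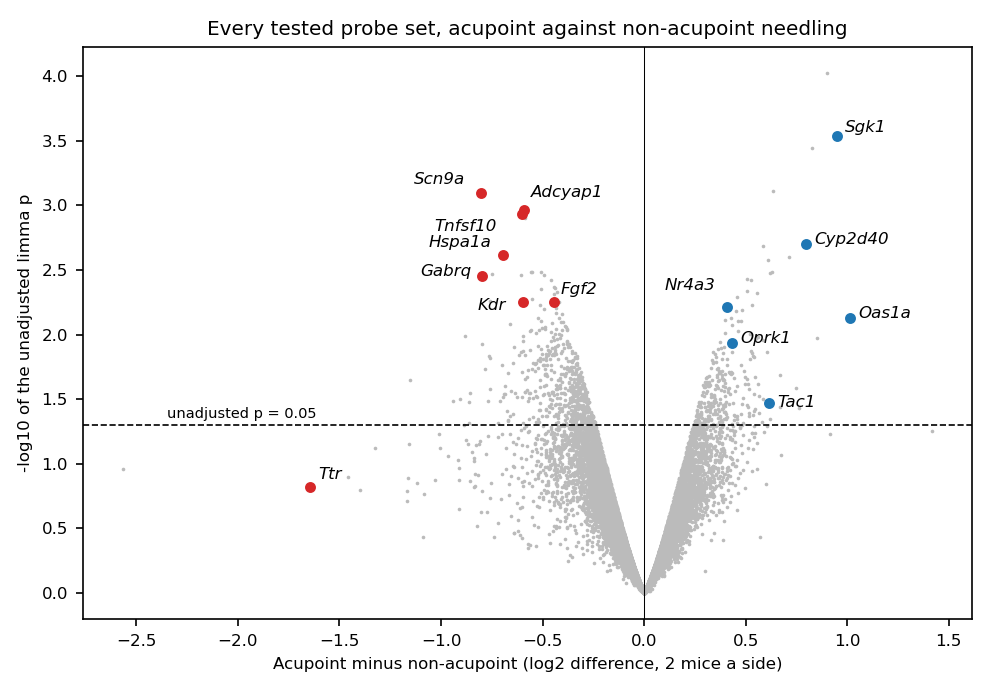
Each grey point is 1 of the 16342 tested probe sets, with the log2 difference between acupoint and non-acupoint mice on the x axis and -log10 of the unadjusted limma p on the y axis. Coloured points are named genes, blue where the acupoint mean was higher and red where it was lower; Sgk1 lies at 0.95 and Scn9a at -0.80, and no point passed the adjusted threshold.

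Among the genes named by the rule, Sgk1 had the smallest p. It encodes a serum- and glucocorticoid-regulated kinase that acts on ion channels and transporters. Its log2 values were 9.98 and 9.82 in the acupoint mice and 8.83 and 9.06 in the non-acupoint mice. Both acupoint values thus lay above both non-acupoint values, with a gap of 0.76 between the nearest pair. The difference was 0.95 (SE 0.13, 95% interval 0.64 to 1.26, unadjusted p = 0.000292, adjusted p = 0.75). The controls stood at 8.86 and 9.07, next to the non-acupoint mice, and the MPTP-only mice at 9.84 and 9.77, next to the acupoint mice. With each array left out in turn the difference ran from 0.84 to 1.07, and with the choroid plexus or thalamus marker level as a covariate it was 1.08 or 1.07. The adjusted p over all alternatives ran from 0.0661 to 1.

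The other glucocorticoid-responsive genes did not share the size of that difference. Of 18 tested genes of this list, 14 were higher in the acupoint mean and 4 lower, with a median difference of 0.03 that ran up to 0.07 with 1 array left out; 6 did not overlap on the higher side and 2 on the lower. Hif3a, a hypoxia-inducible factor subunit that can restrain the others, had log2 values of 5.50 and 5.58 at acupoints and 5.24 and 5.16 at hips (difference 0.34, SE 0.10, adjusted p = 0.75). It was tested through its acupoint values alone, since its non-acupoint mean of 5.20 lay below the mean over the needled mice of 5.22 that a probe set had to reach. Arrdc2, an arrestin-domain gene, had 6.25 and 6.38 against 6.09 and 5.83, a difference of 0.35 (SE 0.13). Zbtb16, a zinc finger repressor that glucocorticoids induce in many tissues, went the other way, with 7.92 and 7.85 at acupoints and 8.13 and 8.47 at hips (difference -0.42, SE 0.14). Its controls were lower than all 4 needled mice, at 6.99 and 7.22, and lower than the MPTP-only mice, at 8.01 and 7.26. Fkbp5, the co-chaperone of the glucocorticoid receptor, is shown because it is a usual readout of the hormone and was chosen after its values were seen. It had 8.38 and 8.35 at acupoints and 8.32 and 8.33 at hips (difference 0.05, SE 0.10).

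Sgk1 has 6 transcription starts in the RefSeq promoter table (GRCm38.p6), each given as the 250 bases before and 50 after the start. The glucocorticoid response element, searched on both strands by name, was found in 1 of those 6 windows, as 2 overlapping matches, 1 on each strand, that begin at -189 and -188 when the start is counted as 0. That window is chr10:21993640-21993939 on the plus strand. It is printed because Sgk1 had the smallest p and is a known target of the hormone; capitals mark the matches.
Sgk1 start 5: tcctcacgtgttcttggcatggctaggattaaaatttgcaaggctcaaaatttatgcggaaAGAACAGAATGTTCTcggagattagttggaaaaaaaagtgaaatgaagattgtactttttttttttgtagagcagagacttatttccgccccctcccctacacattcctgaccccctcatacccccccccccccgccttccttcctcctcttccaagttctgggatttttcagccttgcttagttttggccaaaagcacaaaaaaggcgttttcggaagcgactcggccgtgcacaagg
The same element was found in 2 of 16 members of the list with a promoter in the table, Sgk1 and Mt1, and in 0.247% of the 32851 promoters there. A member counted if any of its windows held the element, while the 0.247% counts single windows, so the units differ. A match describes the letters of the window and shows no binding.

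Heat shock chaperones, which refold or hold damaged proteins, were lower in the acupoint mean in all 13 tested members of the list, where 58.9% of all genes were lower. The median difference was -0.16, against -0.03 over all genes. Of the 13, 5 did not overlap and 4 had an unadjusted p under 0.05, and none was called. Hspa1a encodes the inducible form of HSP70, the chaperone that stress raises most in many cells. Its log2 values were 6.83 and 6.49 in the acupoint mice and 7.33 and 7.38 in the non-acupoint mice. Controls, at 6.69 and 6.85, and MPTP-only mice, at 6.67 and 6.54, lay with the acupoint mice, and both hip-needled mice lay above all other 6. The difference was -0.69 (SE 0.14, 95% interval -1.03 to -0.36, adjusted p = 0.75). Hspa1a has a nearly identical neighbour, Hspa1b, for which no probe set with 1 symbol was listed, so the value may hold signal of both.

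In the other 3 genes with an unadjusted p under 0.05, too, both hip-needled mice were the higher pair. Dnajb1, the HSP40 partner of HSP70, had 8.47 and 8.44 at acupoints and 8.89 and 8.73 at hips (difference -0.36, SE 0.11). Controls had 8.28 and 8.48. Hspb1, the small heat shock protein HSP27, had 7.10 and 6.95 against 7.33 and 7.40 (difference -0.34, SE 0.11). Bag3, a co-chaperone that links HSP70 to autophagy, had 6.69 and 6.69 against 6.94 and 7.09 (difference -0.33, SE 0.11). In all 4 genes both hip-needled mice lay above both controls, while the acupoint mice lay within 0.3 of the control mean. The list level relative to controls was 0.05 and -0.15 in the acupoint mice and 0.22 and 0.16 in the non-acupoint mice. The list median ran from -0.29 without acupoint mouse 1 to -0.06 without acupoint mouse 2; without the latter, 9 of the 13 members were lower and 1 had an unadjusted p under 0.05. With the choroid plexus marker level as a covariate 9 of 13 were lower (median -0.09), and with that of the thalamus 12 of 13 (median -0.18).

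Many heat shock genes carry heat shock elements, the sites of heat shock factor, close to their start. The core GAANNTTC, which reads the same on both strands, was found in 8 of the 11 tested members with a promoter in the RefSeq table and in 7.86% of the 32851 promoters. A member counted if any of its windows held the core, while the 7.86% counts single windows, so the units differ. Of the 4 genes above, Hspa1a (chr17:34972107-34972406, minus strand, match at -104), Hspb1 (chr5:135887669-135887968, plus strand, -117 and -97) and Bag3 (chr7:128523333-128523632, plus strand, 42) had it. Dnajb1, with 2 starts in the table, had none in these windows. These 3 windows are printed because they hold the core in genes with an unadjusted p under 0.05, and the core is in capitals.
Hspa1a: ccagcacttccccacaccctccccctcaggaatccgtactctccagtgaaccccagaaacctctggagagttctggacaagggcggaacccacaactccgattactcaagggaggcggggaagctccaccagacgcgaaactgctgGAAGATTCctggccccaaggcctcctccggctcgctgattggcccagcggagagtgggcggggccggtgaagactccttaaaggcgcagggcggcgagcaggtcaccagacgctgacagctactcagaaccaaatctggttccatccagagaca
Hspb1: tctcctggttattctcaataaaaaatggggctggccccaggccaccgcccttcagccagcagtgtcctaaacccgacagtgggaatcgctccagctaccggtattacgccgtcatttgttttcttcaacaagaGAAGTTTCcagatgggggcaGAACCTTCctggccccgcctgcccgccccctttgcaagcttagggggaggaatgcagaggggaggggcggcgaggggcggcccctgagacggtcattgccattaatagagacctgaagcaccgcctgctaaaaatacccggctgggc
Bag3: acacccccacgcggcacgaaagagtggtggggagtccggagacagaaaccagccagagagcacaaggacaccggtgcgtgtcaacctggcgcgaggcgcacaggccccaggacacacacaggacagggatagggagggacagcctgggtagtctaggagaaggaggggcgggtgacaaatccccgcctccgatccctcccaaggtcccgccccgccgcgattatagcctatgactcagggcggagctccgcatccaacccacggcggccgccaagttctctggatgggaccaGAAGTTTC
The windows show the letters of the core and its distance from the start, and nothing about whether the factor was bound in these mice.

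**Figure D2:**
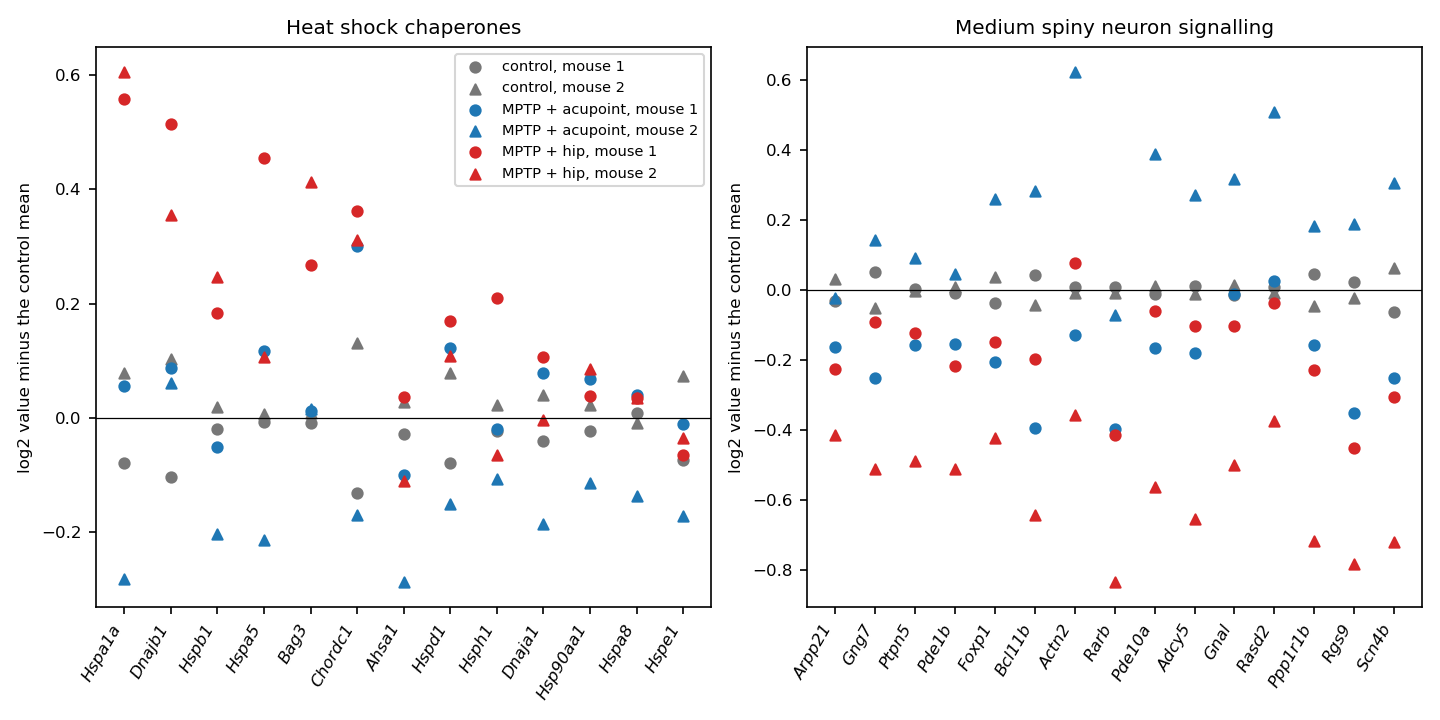
The y axis gives the log2 value minus the control mean for each gene on the x axis, in controls (grey), acupoint mice (blue) and non-acupoint mice (red), with circles for mouse 1 and triangles for mouse 2. Both hip-needled mice lie highest for Hspa1a, Dnajb1, Hspb1 and Bag3, while for the medium spiny neuron genes acupoint mouse 2 is the highest and non-acupoint mouse 2 the lowest of the needled mice.

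Genes of medium spiny neurons were higher in the acupoint mean in all 15 tested members, with a median difference of 0.39 and a range from 0.23 to 0.54; 8 did not overlap, 3 had an unadjusted p under 0.05 and none was called. The list level relative to controls was -0.20 and 0.23 in acupoint mice 1 and 2 and -0.18 and -0.57 in non-acupoint mice 1 and 2. The needled mice numbered 1 were therefore alike. The difference lay between the needled mice numbered 2, which also stood lowest and highest for the thalamus and choroid plexus markers. The 2 MPTP-only mice, under the same treatment, stood at -1.72 and 0.30, further apart than any needled mice. The median was 0.17 without non-acupoint mouse 2 and 0.65 without acupoint mouse 1, and 0.12 or 0.13 with the choroid plexus or thalamus marker level as a covariate. Such a fit leaves 1 residual degree of freedom, and beyond it the part of those markers in the result was not tested. In these bulk samples fewer cells of a type and less RNA per cell cannot be told apart.

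Rgs9, a regulator of G-protein signalling enriched in the striatum, had log2 values of 10.73 and 11.28 at acupoints and 10.64 and 10.30 at hips (difference 0.54, SE 0.21). Gnal, the G-protein subunit that couples the D1 receptor to adenylyl cyclase, had 10.36 and 10.69 against 10.27 and 9.87, a difference of 0.46 (SE 0.18). Ppp1r1b encodes DARPP-32, which integrates dopamine signals in these cells, and had 11.21 and 11.55 against 11.14 and 10.65 (difference 0.49, SE 0.20). In each of the 3 genes acupoint mouse 1 exceeded non-acupoint mouse 1 by 0.07 to 0.10, less than the distance between the mice of either group. Scn4b, a sodium channel beta subunit, differed by 0.54 (SE 0.22, adjusted p = 0.75).

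Direct-pathway genes gave a median difference of 0.42, with 5 of 8 higher, 4 of these without overlap. The median was 0.16 without non-acupoint mouse 2 and 0.22 without acupoint mouse 2, and 0.12 or 0.16 with the choroid plexus or thalamus covariate. Tac1, the precursor of substance P, had 11.35 and 11.54 at acupoints and 11.16 and 10.48 at hips (difference 0.62, SE 0.23). Controls, at 11.18 and 11.30, lay between the groups, and the MPTP-only mice, at 8.70 and 11.64, below and above all other mice. Slc35d3, which takes part in placing the D1 receptor at the cell surface, differed by 0.48 (SE 0.18). Pdyn, the dynorphin precursor, had 8.89 and 9.06 against 8.79 and 8.11 (difference 0.53, SE 0.23). The D1 receptor gene Drd1 had 10.16 and 10.41 against 10.15 and 9.61, a difference of 0.41 (SE 0.20) with a gap of 0.01 between the nearest mice. Among the needled mice, it was again non-acupoint mouse 2 that lay low for Tac1, Pdyn and Drd1. Indirect-pathway genes had a median of 0.28, with 6 of 7 higher but 1 of these without overlap. The median was 0.11 without non-acupoint mouse 2 and 0.12 without acupoint mouse 2, and 0.05 or 0.09 with the covariates. The gene without overlap was Gpr52, an orphan receptor that raises cyclic AMP, with 10.88 and 10.99 against 10.71 and 10.31 (difference 0.42, SE 0.15). Gpr6, another receptor gene of this list, differed by 0.68 (SE 0.33), the D2 receptor gene Drd2 by 0.38 (SE 0.21) and Penk, the enkephalin precursor, by 0.28 (SE 0.16). All 3 overlapped between the groups. Ptprm, a receptor phosphatase, was the member on the lower side, at -0.19 (SE 0.10).

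Of the 6 opioid genes in neither class, 3 were higher and 3 lower, with a median of -0.02. Oprk1, the kappa receptor that dynorphin acts on, had 8.20 and 8.23 at acupoints and 7.91 and 7.66 at hips, a difference of 0.44 (SE 0.12, unadjusted p = 0.0116, adjusted p = 0.75). The controls, at 8.04 and 8.20, lay next to the acupoint mice and above both hip-needled mice. The MPTP-only mice, at 6.51 and 8.71, lay below and above all other mice. Without non-acupoint mouse 2 the difference was 0.31, and with the choroid plexus or thalamus covariate 0.37 or 0.34. Oprd1, the delta receptor, differed by 0.31 (SE 0.17) with overlap, and Oprl1, the nociceptin receptor, by -0.25 (SE 0.12) without.

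Dopamine handling showed no common direction, with 5 of 10 genes higher and a median of 0.02, which was -0.03 with either covariate. Th encodes the rate-limiting enzyme of dopamine synthesis, whose RNA is made mainly in the midbrain neurons and is scarce in striatal tissue. It had 6.65 and 7.36 at acupoints and 6.92 and 6.45 at hips, with 6.73 and 6.80 in controls (difference 0.32, SE 0.26). The acupoint mice were the lowest but 1 and the highest of the 4, and the sign turned without acupoint mouse 2 (-0.03). Slc6a3, the dopamine transporter through which MPTP's product enters the axon, had 5.73 and 6.70 against 5.66 and 5.66 (difference 0.56, SE 0.30), so 1 mouse carried it, and without acupoint mouse 2 the difference was 0.07. Ddc, which makes dopamine from L-DOPA, had 7.54 and 7.44 against 7.72 and 7.66 (difference -0.20, SE 0.10), and Aldh1a1, which clears a dopamine aldehyde, differed by -0.41 (SE 0.27). Of the 5 dopamine receptors 4 were higher, with a median of 0.38. Without non-acupoint mouse 2 there were 3 of 5 higher with a median of 0.13, and the covariates gave 0.17 or 0.14. The level of this list relative to controls was -1.04 and 0.26 in the MPTP-only mice. Drd4, which binds dopamine with a D2-like pharmacology, had 6.43 and 6.61 against 6.22 and 5.98, a difference of 0.42 (SE 0.13, unadjusted p = 0.0196).

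**Figure D3:**
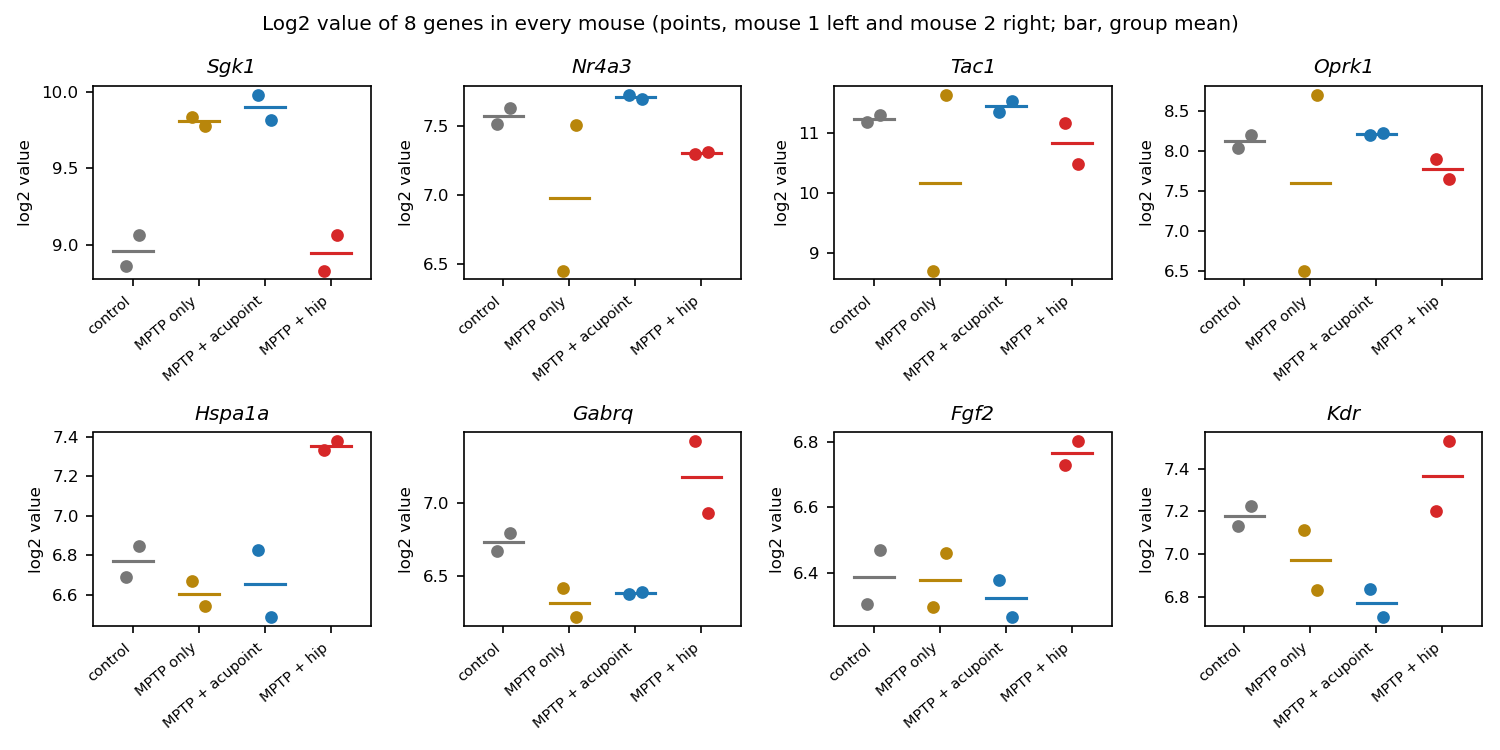
Each panel gives the log2 value of 1 gene on the y axis in all 8 mice, by group on the x axis; points are mice (mouse 1 left, mouse 2 right) and bars are group means. For Sgk1 the acupoint mice lie with the MPTP-only mice near 9.8 and the non-acupoint mice with the controls near 9.0, while for Hspa1a and Fgf2 both non-acupoint mice lie above the other 6.

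Immediate early genes, which neurons switch on within minutes of activity, were split, with 19 of 33 higher and a median of 0.04, which ran from -0.01 to 0.09 with 1 array left out. Nr4a3, an orphan nuclear receptor, had 7.73 and 7.70 at acupoints and 7.30 and 7.31 at hips. The mice of each needled group differed by at most 0.03 here, and the controls, at 7.52 and 7.63, lay between the needled groups. The MPTP-only mice, at 6.45 and 7.51, lay further apart than the mice of any other group. The difference was 0.41 (SE 0.10, unadjusted p = 0.00611), and it ran from 0.39 to 0.42 when any array was left out. Egr3, an activity-dependent zinc finger factor, differed by 0.38 (SE 0.15). Dusp1, a phosphatase that ends MAP kinase signals, had 8.52 and 8.52 against 8.77 and 8.89 (difference -0.32, SE 0.10). Npas4, a factor that calcium entry induces in neurons, had 6.81 and 6.76 against 6.99 and 7.09 (difference -0.26, SE 0.10). All 4 needled mice lay below both controls for Npas4, at 7.93 and 7.95, and for Dusp1, at 9.20 and 9.29. So did both MPTP-only mice, at 5.95 and 6.55 for Npas4 and at 8.79 and 8.48 for Dusp1. Fos differed by -0.09 (SE 0.19) and Arc by -0.03 (SE 0.11). Both genes also lay below the controls in all 4 needled mice and in both MPTP-only mice. Their acupoint and non-acupoint values overlapped.

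Neurotrophic factors and receptors had a median of -0.10, with 6 of 14 higher, and the median ran from -0.20 to -0.05 with 1 array left out. Fgf2, basic fibroblast growth factor, a trophic factor of dopamine neurons in culture, had 6.38 and 6.27 at acupoints and 6.73 and 6.80 at hips. Controls had 6.31 and 6.47 and MPTP-only mice 6.30 and 6.46, so both hip-needled mice lay above all other 6. The difference was -0.44 (SE 0.11, unadjusted p = 0.00564, adjusted p = 0.75). Ngfr, the p75 neurotrophin receptor, had 6.58 and 6.31 against 6.89 and 7.01 (difference -0.51, SE 0.13). Gfra2, the neurturin co-receptor, had 7.85 and 7.37 against 8.05 and 8.03, a difference of -0.43 (SE 0.17). Controls stood at 8.08 and 8.10 for Gfra2, next to the hip-needled mice. Bdnf, brain-derived neurotrophic factor, differed by 0.01 (SE 0.10), and its 4 values lay between 6.19 and 6.28.

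**Figure D4:**
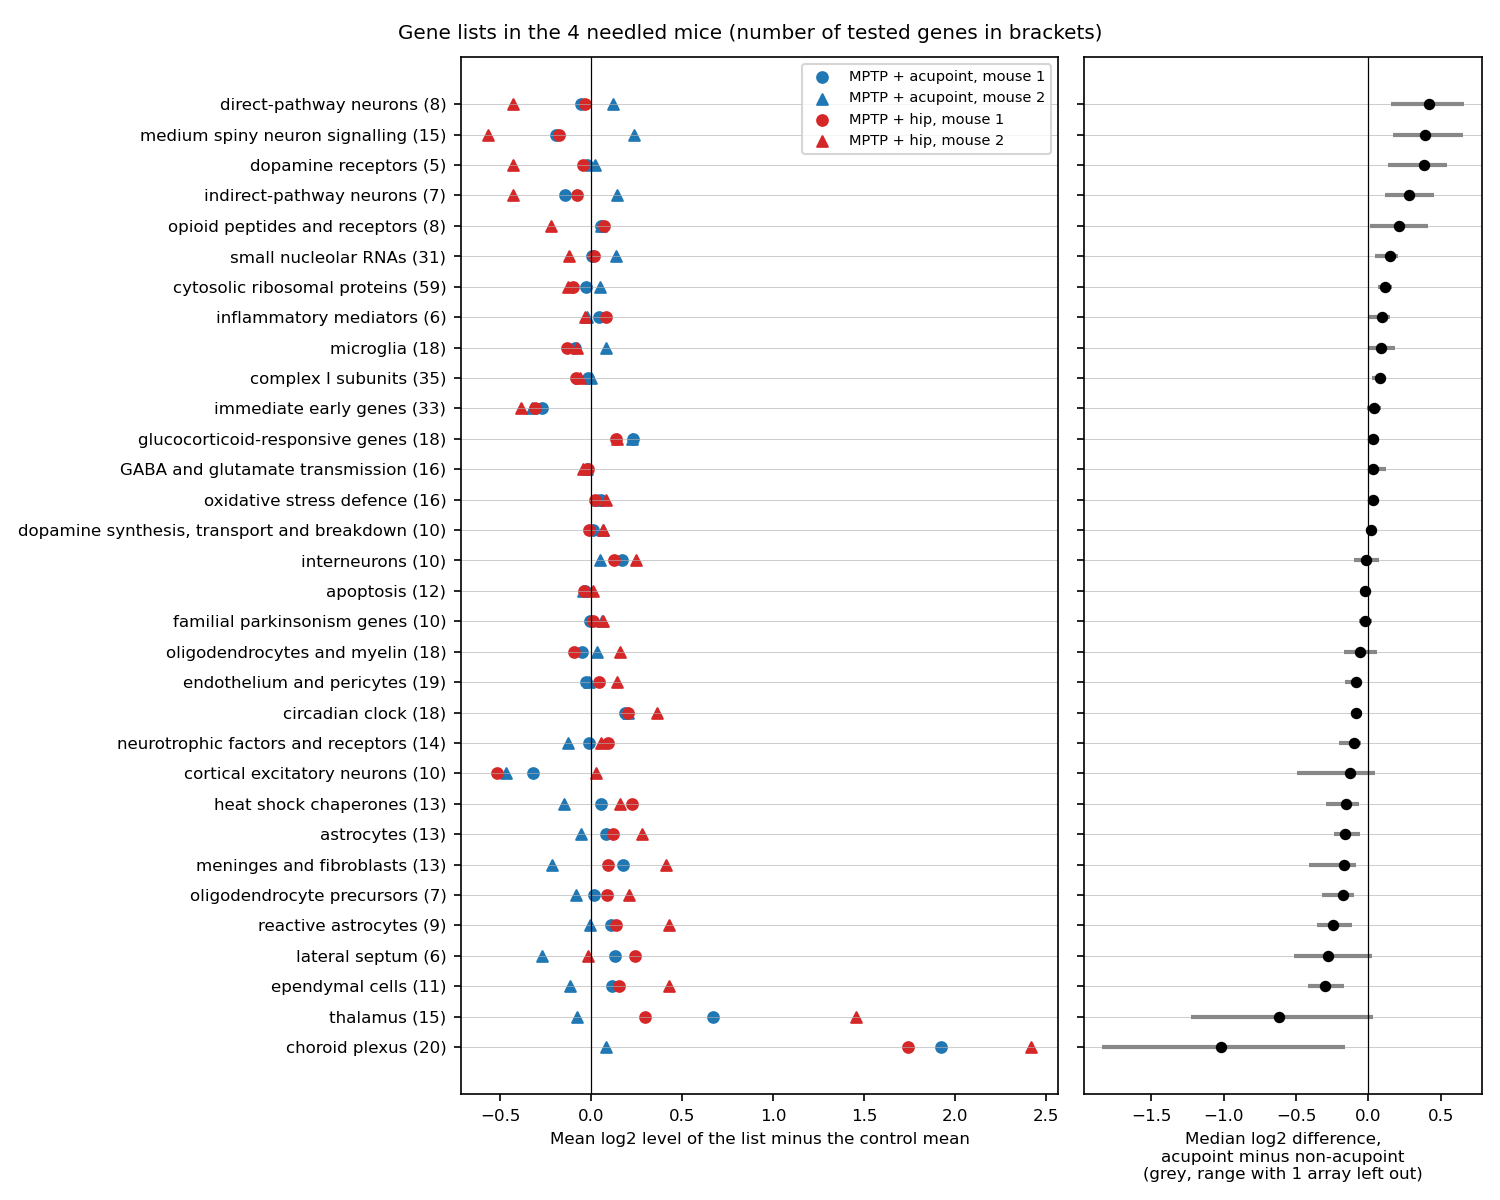
For each gene list on the y axis, the left panel gives the mean log2 level of its tested genes minus the control mean in acupoint mice (blue) and non-acupoint mice (red), circles for mouse 1 and triangles for mouse 2. The right panel gives the median difference (black) and its range when any 1 array is left out (grey); that range is widest for the choroid plexus list (-1.84 to -0.16) and crosses 0 for the thalamus list.

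Markers of tissues next to the striatum were lower in the acupoint mean. All 20 choroid plexus genes were lower, with a median of -1.02, but only 5 of them did not overlap and none had an unadjusted p under 0.05. Ttr, the transport protein transthyretin and the main product of that tissue, had 13.42 and 9.98 at acupoints and 13.20 and 13.49 at hips (difference -1.64, SE 1.00). Among the needled mice acupoint mouse 2 alone stood low, and without it the difference was 0.08 for Ttr and -0.16 for the list. The controls had 8.63 and 8.88 for Ttr and the MPTP-only mice 13.39 and 8.12. Acupoint mouse 2 was thus the needled mouse nearest the controls. The collagen gene Col8a1 (-1.01, SE 0.43), the water channel gene Aqp1 (-0.88, SE 0.39) and Wdr86 (-0.29, SE 0.12) had the same mouse lowest. All 15 thalamus genes were lower, with a median of -0.62, 2 of them without overlap, and the median became 0.03 without non-acupoint mouse 2. Calb2, the calcium-binding protein calretinin, had 9.88 and 8.73 against 9.89 and 10.35 (difference -0.81, SE 0.37). Of 6 lateral septum genes 5 were lower, with a median of -0.28. Without acupoint mouse 2 there were 3 of 6 lower with a median of 0.02, and with the choroid plexus covariate 2 of 6 with the same median. Avpr1a, the vasopressin receptor, had 6.84 and 6.76 against 7.26 and 7.14 (difference -0.40, SE 0.11, unadjusted p = 0.00923), with 7.03 and 7.14 in controls.

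Ependymal cells, the ciliated cells that line the ventricles, gave a more even picture. All 11 genes were lower, with a median of -0.30; 8 did not overlap and 2 had an unadjusted p under 0.05. The radial spoke gene Rsph4a had 6.96 and 6.79 at acupoints and 7.15 and 7.34 at hips (difference -0.37, SE 0.12). Tmem212, a gene of ciliated cells, had 7.17 and 7.09 against 7.36 and 7.52 (difference -0.31, SE 0.11). The list level relative to controls was 0.12 and -0.12 in the acupoint mice and 0.15 and 0.43 in the non-acupoint mice, in the same order of mice as the choroid plexus markers but for the mice numbered 1. The median ran from -0.42 to -0.17 with 1 array left out, and was -0.11 or -0.19 with the choroid plexus or thalamus covariate.

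Astrocyte genes were mostly lower at acupoints, 11 of 13, with a median of -0.16 that was -0.06 without non-acupoint mouse 2 and -0.08 without acupoint mouse 2. All 9 genes of reactive astrocytes were lower, with a median of -0.24 and 7 without overlap. Agt, the precursor of angiotensin, had 10.02 and 9.46 against 10.16 and 10.71 (difference -0.70, SE 0.25). Gfap, the filament protein that astrocytes raise on injury, had 8.18 and 7.84 against 8.19 and 8.68 (difference -0.43, SE 0.20), and its controls stood at 7.98 and 8.06. Serpina3n, a protease inhibitor of reactive astrocytes, had 8.26 and 8.10 against 8.48 and 8.60, a difference of -0.37 (SE 0.11, unadjusted p = 0.0182). The median of the reactive list was -0.11 without non-acupoint mouse 2 and -0.13 or -0.12 with the covariates. Microglial genes were higher in 17 of 18, but by a median of 0.09, which was 0.01 without acupoint mouse 2, where 10 of 18 were higher. With the choroid plexus or thalamus covariate 10 or 13 of 18 were higher, with a median of 0.02 or 0.07. Gpr34, a lysophosphatidylserine receptor of microglia, differed by 0.28 (SE 0.10), Tmem119 by 0.21 (SE 0.11) and Aif1, the marker protein Iba1, by 0.14 (SE 0.13).

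Of 19 endothelial and pericyte genes 15 were lower, with a median of -0.08, from -0.16 to -0.06 with 1 array left out, and 8 without overlap on that side. Kdr, the main VEGF receptor of endothelium, had 6.84 and 6.70 at acupoints and 7.20 and 7.53 at hips, with 7.13 and 7.22 in controls. The difference was -0.60 (SE 0.14, unadjusted p = 0.00559), and -0.46 or -0.45 with the covariates. Flt1, another VEGF receptor, differed by -0.24 (SE 0.11), and Kcnj8, a potassium channel gene of pericytes, by 0.34 (SE 0.13). Oligodendrocyte precursor genes were lower in 6 of 7 (median -0.18, from -0.32 to -0.10 with 1 array left out). Lhfpl3 had 9.37 and 9.18 against 9.57 and 9.78 (difference -0.40, SE 0.13), and Gpr17, a receptor of cells on the way to myelination, differed by -0.27 (SE 0.10). Genes of mature oligodendrocytes were higher in 5 of 18 (median -0.06). The hip-needled mice decided that count, with 17 of 18 higher without non-acupoint mouse 2 (median 0.06) and 0 of 18 without non-acupoint mouse 1 (median -0.17). Meningeal genes were higher in 4 of 13 (median -0.17, from -0.41 to -0.08 with 1 array left out), with Igf2, a growth factor of meninges and choroid plexus, at -0.94 (SE 0.34). The 1 tested gene of blood differed by -0.06, and by 0.15 without non-acupoint mouse 2.

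Cytosolic ribosomal protein genes were higher at acupoints in 53 of 59, where 41.1% of all genes were higher. Of these, 32 did not overlap, against 13.3% of all genes, and 4 had an unadjusted p under 0.05. The median was 0.12, and it ran from 0.07 to 0.16 with 1 array left out. With the choroid plexus or thalamus covariate it was 0.08 or 0.07, with 44 or 50 of the 59 higher. Rpl34 had 7.78 and 7.80 against 7.45 and 7.45 (difference 0.34, SE 0.10, unadjusted p = 0.0136), and Rpl24 had 11.11 and 11.07 against 10.84 and 10.81 (difference 0.27, SE 0.10). Controls lay between the groups for both, at 7.58 and 7.50 and at 11.02 and 10.99. Rpl10l (0.59, SE 0.21) and Rpl12 (0.40, SE 0.15) were the other members under that level. Rpl12 reached the mean for testing through the acupoint mice alone, with a non-acupoint mean of 5.20. Ribosomal protein genes have many processed copies, so these probe sets can hold signal of more than 1 locus. Small nucleolar RNAs, which guide the chemical modification of ribosomal RNA, were higher in 24 of 31, with a median of 0.15 and 8 without overlap. That median was 0.05 without non-acupoint mouse 2 or without acupoint mouse 2, and 0.03 or 0.04 with the choroid plexus or thalamus covariate. Snord47 had 6.50 and 6.35 against 5.94 and 5.67 (difference 0.62, SE 0.13, unadjusted p = 0.00334), Snord33 differed by 0.39 (SE 0.13) and Snord14e by -0.57 (SE 0.18).

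Subunits of complex I, the respiratory complex that MPTP's product blocks, were higher in 24 of 35, with 16 without overlap on that side and 3 on the other. The median was 0.08 and 2 genes had an unadjusted p under 0.05. Ndufb2 had 7.60 and 7.81 at acupoints and 7.41 and 7.35 at hips (difference 0.33, SE 0.12). Ndufa5 had 9.22 and 9.20 against 9.01 and 8.87 (difference 0.26, SE 0.11), Ndufa1 differed by 0.39 (SE 0.16) and Ndufa11 by 0.23 (SE 0.10). The probe sets of Ndufa11 disagree, since the other tested one differed by -0.13, also without overlap. With 1 array left out the median ran from 0.02 to 0.09.

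Several lists showed little. Genes of oxidative stress defence were higher in 9 of 16 (median 0.03), with Hmox1, heme oxygenase, at -0.27 (SE 0.12). Familial parkinsonism genes were higher in 4 of 10 (median -0.02), apoptosis genes in 5 of 12 (-0.02), interneuron markers in 5 of 10 (-0.02), genes of GABA and glutamate transmission in 9 of 16 (0.03) and inflammatory mediators in 4 of 6 (0.09). With 1 array left out these medians lay between -0.10 and 0.15. The chemokine gene Ccl3 had 6.40 and 5.81 against 6.61 and 6.77 (difference -0.59, SE 0.20). Cortical markers were higher in 4 of 10 (median -0.13, and 0.05 without non-acupoint mouse 2), with Rasgrf2 at -0.45 (SE 0.16). Circadian clock genes were lower in 14 of 18 (median -0.08, from -0.12 to -0.04 with 1 array left out), and Bmal1, the central activator of the clock, went the other way at 0.27 (SE 0.12).

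The genes with the smallest p outside these lists were of many kinds. Scn9a, the sodium channel Nav1.7 known from pain-sensing neurons, had 5.62 and 5.33 at acupoints and 6.25 and 6.31 at hips. The other 4 mice, controls and MPTP-only, lay between 5.21 and 5.61, so both hip-needled mice stood above all other 6. The difference was -0.80 (SE 0.13, unadjusted p = 0.000795, adjusted p = 0.75), and the second Scn9a probe set also did not overlap (-0.27). Gabrq, the theta subunit of the GABA-A receptor, had 6.38 and 6.39 against 7.43 and 6.94, with 6.67 and 6.79 in controls (difference -0.80, SE 0.17). Adcyap1, the neuropeptide PACAP, had 6.27 and 6.19 against 6.81 and 6.83 (difference -0.59, SE 0.10). The MPTP-only mice, at 7.39 and 5.92, lay above and below all 4 needled mice for Adcyap1. Tnfsf10, the death ligand TRAIL, had 5.41 and 5.53 against 6.06 and 6.07 (difference -0.60, SE 0.10), with 5.88 and 5.79 in controls. Itih3, a heavy chain of inter-alpha-trypsin inhibitor, had 8.62 and 8.21 against 9.24 and 9.08 (difference -0.75, SE 0.16), with 8.64 and 8.60 in controls. For Itih3, too, the MPTP-only mice, at 9.279 and 7.865, lay above and below all 4 needled mice. For all 5 genes the needled groups did not overlap.

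Others on the lower side were Zscan29 (-0.59), Gpr1 (-0.61), Ccdc180 (-0.56), Minar1 (-0.55), Hdx (-0.51) and Tcf21 (-0.49). Tcf21 was tested through the non-acupoint mice alone, since its acupoint mean of 4.98 lay below 5.22. Ccdc180 has 19 tested probe sets, of which 8 were higher, so they disagree. On the higher side, Oas1a, an interferon-induced sensor of double-stranded RNA, differed by 1.01 (SE 0.26). Its acupoint mice both stood at 5.92, and its non-acupoint mice at 5.32 and 4.50, a mean of 4.91, so it too was tested only through the group where it was high. Cyp2d40, a cytochrome P450 gene, had 5.99 and 6.23 against 5.48 and 5.14 (difference 0.80, SE 0.15). Ccl17, a T-cell chemokine, had 5.75 and 6.06 against 5.24 and 5.31 (difference 0.63, SE 0.13). Adamts3, a protease that processes procollagen and activates VEGF-C, had 9.38 and 9.39 against 8.99 and 8.78 (difference 0.50, SE 0.11). All 16 of its tested probe sets were higher, by 0.21 to 0.54, and 11 of them did not overlap; they lie in 1 gene and are not independent. The remaining genes were Pom121l2 (0.61), Lmod2 (0.58), Rimbp3 (0.56), Krtap10-4 (0.53), Aldoart1 (0.51), Cand2 (0.48) and Abcc3 (0.46). Of these, Pom121l2 and Lmod2 had non-acupoint means of 4.95 and 5.17, below 5.22, and were tested through the acupoint mice alone.

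The unneedled mice were placed beside this contrast by asking whether each of them lay nearer the acupoint or the non-acupoint mean. Over all 16342 probe sets, the controls were nearer the acupoint mean in 65.1% and 57.6%, and the MPTP-only mice in 44.7% and 63.9%. Over the 279 probe sets that were higher at acupoints at an unadjusted p under 0.05, the shares were 80.3% and 64.9% for the controls and 49.5% and 69.9% for the MPTP-only mice. Over the 554 lower ones they were 76.5% and 67.1%, and 39.2% and 85.4%. In each of these sets 3 of the 4 unneedled mice were thus nearer the acupoint mean in most probe sets, and MPTP-only mouse 1, which had the highest thalamus markers of all 8, was not. These shares carry no test, and the same 4 needled mice define every mean in them.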

How the data were processed

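RNA of the striatum of 8 mice was hybridised to Affymetrix whole-transcript arrays from 300 ng of total RNA, per the labels' protocols. The deposited table holds 1 log2 value per probe set and array, made by the authors with Affymetrix Expression Console and RMA, per the submitters' processing notes. No scanner files were used here, and the genome build of the probe sets is not given in the sources used here.

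The members, gene lists and tests were chosen with earlier results of these data known. Symbols came from the platform's gene table; 21698 of 21789 probe sets with 1 symbol matched RefSeq (GRCm38.p6), and the 1621 with several symbols and 12147 unnamed here were not tested. Tested were 16342 probe sets of 14888 genes with a mean over the 4 needled arrays of at least 5.22, the 25th percentile. They were fitted by lmFit and eBayes of limma 3.58.1 under R 4.3.3 (2 residual and 4.01 prior degrees of freedom), with Benjamini-Hochberg adjustment and a threshold of 0.05. The fit was tested on simulated data. In the 33 lists, the brightest probe set stood for a gene. Named genes were the 12 in each direction with the smallest p and no overlap, the 8 in each direction with the largest gap between groups, the 4 of each list with the smallest p, and fixed genes of dopamine, opioid, glial and activity biology; gene models, sensory receptors and small RNA genes were left out of the first and second choice. Precision is limited by there being 4 arrays.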

Additional observations from a re-analysis of the deposited data

Results flagged for a closer look

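The naming rule gave 152 genes. In 22 of them both acupoint mice lay on 1 side of both controls and both non-acupoint mice on the other. The difference between the needled groups was itself tested with limma, and none was called (adjusted p = 0.75 for each of them). On the higher side at acupoints were Snord47 (0.62), Tac1 (0.62), Pom121l2 (0.61), Lmod2 (0.58), Rimbp3 (0.56), Cand2 (0.48), Abcc3 (0.46), Nr4a3 (0.41), Rpl34 (0.34) and Rpl24 (0.27). On the lower side were Gabrq (-0.80), Gpr1 (-0.61), Tnfsf10 (-0.60), Adcyap1 (-0.59), Hdx (-0.51), Ngfr (-0.51), Avpr1a (-0.40), Hspb1 (-0.34), Fgfr3 (-0.23), Sox9 (-0.21), S1pr3 (-0.18) and Vcan (-0.18). Fgfr3, a fibroblast growth factor receptor, and the transcription factor gene Sox9 are on the astrocyte list, the sphingosine phosphate receptor gene S1pr3 on that of reactive astrocytes and Vcan, the proteoglycan versican, on that of oligodendrocyte precursors. Pom121l2 and Lmod2 were tested only because of the acupoint mice, where they were high. The genes were looked at because of their difference between the needled groups, and only their place relative to the controls is added here. The share of all tested genes with such an order was not counted, so the 22 have no background beside them. Some gaps to the controls were small. For Tac1 the nearest non-acupoint mouse had 11.16 and the nearest control 11.18. For Fgfr3 the nearest acupoint mouse had 8.74 and the nearest control 8.76. With 2 mice a group, no single mouse could be checked as far from the others of its group.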

How the results depend on the processing

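The count of 0 called probe sets was also found under every alternative but 1. With the mean thalamus marker level of each array as a covariate, which leaves 1 residual degree of freedom, 1 probe set was called. It was Oxt, the oxytocin precursor (-1.68, adjusted p = 0.00318 in limma, against -1.15 and 0.75 without the covariate), a gene named here after its values were seen. At an unadjusted p under 0.05, 279 higher and 554 lower probe sets became 118 and 188 with the choroid plexus covariate and 180 and 353 in a fit on all 8 arrays. The lower count was 869 in a fit on 6 arrays without the MPTP-only group. The higher count was 142 with a filter at the median and 526 with unnamed and multi-symbol probe sets included. With 1 array left out, the higher count ran from 75 to 723, the lower from 109 to 1146, and the probe sets without overlap, 6298 with all arrays, from 10080 to 12512, since a lone mouse overlaps less often. The labels number the mice 1 and 2 in both groups, but same-numbered mice deviated in opposite directions (r = -0.40), so the numbers were not taken to pair them. With the mouse number as a replicate block the counts were 114 and 273. With the pairing crossed, an alternative chosen after seeing the data, they were 800 and 1554, with 0 calls.

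Of 1606 values of the 103 genes tracked under the alternatives, 15 had the opposite sign, in 6 genes. With the choroid plexus covariate Th was -0.133, Fos 0.21, Bdnf -0.036 and Ttr 0.187. With the thalamus covariate Th was -0.007, Fos 0.091 and Bdnf -0.012. With repeated quantile normalisation Arc was 0.014. With 1 array left out, the range was -0.034 to 0.671 for Th, -0.353 to 0.167 for Fos, -0.034 to 0.054 for Bdnf, -3.367 to 0.081 for Ttr, -0.109 to 0.052 for Arc and -0.839 to 0.028 for Aldh1a1. The cause was not tested. Signal over background was not given in the table, so faint probe sets could be judged only by their log2 value.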

Other observations

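Gene families were also read out after the data had been seen, and carry no test. Beside them stand the shares over all genes, 41.1% higher and 58.9% lower, with 13.3% and 25% without overlap. At an unadjusted p under 0.05 in limma those shares were 1.65% and 3.37%. Of 32 genes of the cilium and flagellum associated and radial spoke families, 27 were lower in the acupoint mean, 15 without overlap and 7 at an unadjusted p under 0.05, with a median of -0.24. Their level relative to controls was 0.10 and -0.13 in the acupoint mice and 0.12 and 0.31 in the non-acupoint mice. Axonemal dynein heavy chains, the motors of cilia, were lower in 7 of 10 (median -0.21). ATP synthase subunits were higher in 14 of 17 (median 0.08, 7 without overlap), and the subunits of respiratory complexes II to IV in 19 of 28 (0.07). Mitochondrial ribosomal proteins, unlike the cytosolic ones above, were split, with 38 higher and 39 lower (median -0.002), and so were proteasome subunits, with 19 and 18.

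Collagen genes were higher in 29 of 42 (median 0.09), 4 of them at an unadjusted p under 0.05. Protocadherins, adhesion proteins of synapses, were lower in 23 of 33 (median -0.07), 5 of them at that level. Subunits of the GABA-A receptor were lower in 8 of 11 (median -0.12) and sodium channel alpha subunits in 5 of 6 (-0.14). Zinc finger genes were lower in 208 of 316 (median -0.05), where 58.9% of all genes were lower (median -0.03). Olfactory receptor genes have little or no RNA in striatum and serve as a look at faint probe sets. They were higher in 56 of 68 (median 0.12), with levels relative to controls of -0.06 and 0.14 in the acupoint mice and -0.03 and -0.25 in the non-acupoint mice. Without overlap were 20 on the higher side, against 13.3% of all genes, and 1 on the lower, and 4 higher ones had an unadjusted p under 0.05. The cytosolic ribosomal protein list also had a median of 0.12. With the filter at the median, which drops fainter probe sets, 49 of its 55 tested genes were higher, with a median of 0.115. What part a shift of faint probe sets, as in the olfactory receptor genes, had in the faint genes named as higher was not tested.

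The order of mice seen for Sgk1, with both MPTP-only and both acupoint mice above both controls and both non-acupoint mice, was shared by 102 of 16342 probe sets, and the opposite order by 196. The smallest distance between the 4 higher and the 4 lower mice was 0.71 for Sgk1. The next in size was -0.30 for Olfm4, a secreted glycoprotein gene chosen here after its values were seen, with the sign for the opposite order. Among other genes named above, Gabrq stood at -0.26 and Avpr1a, Gfra2 and Npas4 each at -0.18. Smaller distances were found for Snord14e (-0.125), Rpl34 (0.11) and Tnfsf10 (-0.109), and not every such gene is given here.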
